A study of Mus musculus with 12 samples.

Results

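The Hox genes encode the homeodomain transcription factors that give cells their address along the body axis. They were taken as every gene whose array annotation symbol is Hoxa, Hoxb, Hoxc or Hoxd followed by a number, with 1 probe set per gene, the one with the highest mean over all arrays. This gave 33 of the 39 mouse Hox genes, out of 18193 genes measured by a probe set with a single symbol. The other 6 were not analysed here.

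The cells were C3H10T1/2, a mouse embryonic mesenchymal line that can form cartilage, bone, fat and muscle cells. They were transfected with siRNA-140, a mimic of the cartilage microRNA miR-140, or with siRNA-96 as its control, and in a separate experiment with LNA-antimicroRNA-140, which blocks the cells' own miR-140, or with LNA-antimicroRNA-449 in the control cells. LNA stands for locked nucleic acid, whose stiffened sugar makes an oligonucleotide hold its target firmly. Each group had 3 arrays, 12 in all. Every group was transfected with an oligonucleotide, and each control acts on or mimics another microRNA. The labels name no dose, time or untreated cells. Nor do they tell separate cultures from repeats of 1 culture, so the p-values cover only the spread among these arrays, which may be technical. Mature microRNAs are not measured by these arrays.

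In mammals the Hox genes lie in 4 clusters, HoxA to HoxD, on mouse chromosomes 6, 11, 15 and 2. Their order along each cluster matches the order in which they are used along the body, from paralog group 1 in the hindbrain to group 13 in the tail and the tips of the limbs. Polycomb complexes hold unused Hox genes silent, trithorax proteins and retinoic acid help to open them, and Hox proteins bind DNA together with TALE homeodomain partners of the Pbx and Meis families. Mesenchymal cells and fibroblasts keep part of this code in culture, and it differs with the place in the body that they came from.

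Arrays were not always most alike within their labels. In the antimicroRNA experiment the 3 antimicroRNA-449 arrays all lay nearest to antimicroRNA-140 replicate 1 over the Hox genes. The siRNA arrays fell into 2 sets that cut across the labels. Over the 33 Hox genes, siRNA-140 replicate 3 lay nearest to siRNA-96 replicate 2, with a root mean square distance of 0.185 on the log2 scale, and siRNA-96 replicate 1 lay nearest to siRNA-140 replicate 1, at 0.208. The same nearest arrays were found over all probe sets, by correlation. The interferon-induced gene Usp18 shows the split: in replicate order it had 3.85, 4.67 and 8.01 in siRNA-140 cells, against 4.65, 8.92 and 9.30 in siRNA-96 cells. The siRNA comparison was therefore fitted with all arrays and again without these 2. They were left out for their profile, so that the second set of values is not independent evidence.

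Values are on RMA's log2 scale. Array medians were 3.95 to 4.02 in the siRNA experiment and 4.32 to 4.38 in the antimicroRNA experiment, and whether both were normalized together is not given, so levels are set side by side between the experiments without a test. The labelled cell type was checked first. Of 14 fibroblast and mesenchymal markers, 12 lay above background in all 12 arrays, the exceptions being Thy1 and Lum, and their mean level per array was 9.21 to 9.37 in siRNA-140 cells, 9.09 to 9.36 in siRNA-96 cells, 9.76 to 9.79 in antimicroRNA-140 cells and 9.77 to 9.86 in antimicroRNA-449 cells. The 18S ribosomal RNA control probe sets averaged 10.5 in siRNA-96 replicate 1 and 10.2 in antimicroRNA-449 replicate 1, against 5.40 to 7.86 in the other 10 arrays. Whether this has a part in the results was not tested.

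The HoxA cluster supplied most of the Hox transcripts that stood above background. Background was set in each array as the 95th percentile of 44 probe sets of olfactory receptor genes, which mesenchymal cells are not known to use. By this level 11 of the 33 Hox genes (33.3%) lay above background in all 12 arrays, 7 did so in some arrays and 15 in none. The 11 comprised 7 of 9 HoxA genes (Hoxa2, Hoxa3, Hoxa4, Hoxa5, Hoxa7, Hoxa9 and Hoxa10), 1 of 9 HoxB genes (Hoxb3), 2 of 7 HoxC genes (Hoxc6 and Hoxc9) and 1 of 8 HoxD genes (Hoxd9). All of them belong to paralog groups 2 to 10. Of all genes measured, 60.8% lay above the same level in all 12 arrays.

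**Figure D1:**
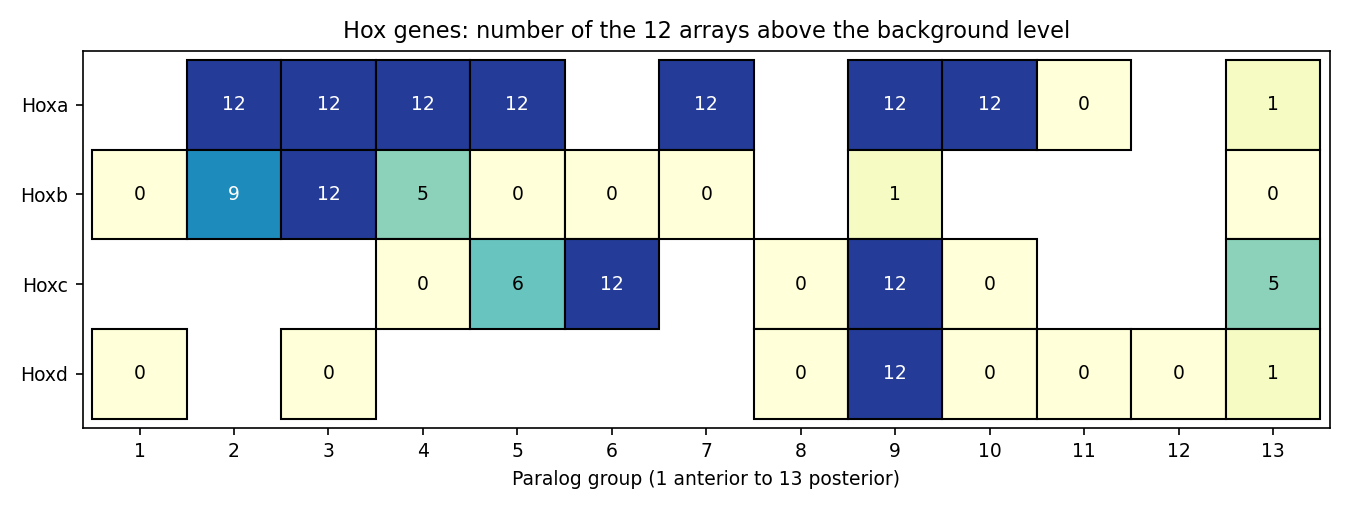
Rows are the 4 Hox clusters and columns the paralog groups 1 to 13; the number in each box is the count of the 12 arrays in which the gene lay above the background level, and blank places hold no Hox gene or one not analysed here. In the HoxA row the genes at 12 run from group 2 to group 10, while in the other rows only Hoxb3, Hoxc6, Hoxc9 and Hoxd9 reach 12.

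This level is weak evidence that a gene is used. Of 33 marker genes of epithelial, endothelial, immune, neural and muscle cells, 12 (36.4%) also lay above it in all 12 arrays, among them Epcam, Kdr and Cd3e, as did 1 of 39 olfactory receptor genes. Probe sets differ in how strongly they bind, so a gene at background may still be transcribed. The count also rests on the brightest probe set of each gene, and Hoxa3 had 4 to choose from. Hoxa3, Hoxa4, Hoxa9, Hoxa10, Hoxb3 and Hoxc6 each had another probe set below background in every array. That of Hoxa4 ran from 1.90 to 2.68 and that of Hoxa9 from 2.22 to 3.77. Just inside the limit was Hoxa10, whose smallest margin over background was 0.035, and just outside it was Hoxb2, which was above in 9 of 12 arrays and 0.405 below at its lowest. With the 99th percentile as the level, 9 Hox genes remained in all 12 arrays, without Hoxa10 and Hoxd9.

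The probe sets of Hoxa5, Hoxa3 and Hoxa7 lay far above background in every array. Hoxa5, which patterns the lower neck vertebrae and the lung, had 6.93, 7.21 and 7.01 in siRNA-140 cells, 6.99, 7.04 and 7.0 in siRNA-96 cells, 7.56, 7.58 and 7.39 in antimicroRNA-140 cells and 7.56, 7.63 and 7.48 in antimicroRNA-449 cells. Hoxa3, needed for the thymus and parathyroid, had 6.83, 6.95 and 7.53 in siRNA-140 cells, 6.82, 7.56 and 7.52 in siRNA-96 cells, 7.38, 7.36 and 7.44 in antimicroRNA-140 cells and 7.40, 7.36 and 7.30 in antimicroRNA-449 cells. Hoxa7, a gene of the trunk vertebrae, had 6.53, 6.63 and 6.80 in siRNA-140 cells, 6.65, 6.95 and 6.96 in siRNA-96 cells, 7.18, 7.11 and 7.2 in antimicroRNA-140 cells and 7.19, 7.18 and 6.95 in antimicroRNA-449 cells. Their groups overlapped in both experiments. The siRNA arrays low in Hoxa3, and also in Hoxa7, were siRNA-140 replicates 1 and 2 and siRNA-96 replicate 1.

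The other HoxA genes above background covered the anterior and the posterior part of the cluster. Hoxa2, which sets the identity of the second pharyngeal arch, had 5.22, 5.18 and 5.73 in siRNA-140 cells, 5.35, 5.67 and 5.58 in siRNA-96 cells, 5.53, 5.58 and 5.51 in antimicroRNA-140 cells and 5.60, 5.56 and 5.56 in antimicroRNA-449 cells. Its low arrays were the same 3 as for Hoxa3. Hoxa4, a gene of the neck vertebrae, had 4.83, 4.92 and 5.23 in siRNA-140 cells, 4.78, 5.07 and 5.06 in siRNA-96 cells, 5.35, 5.38 and 5.39 in antimicroRNA-140 cells and 5.22, 5.20 and 5.38 in antimicroRNA-449 cells, and it too was lowest in these 3. Hoxa9, known from limb and blood cell development, had 4.96, 5.04 and 4.98 in siRNA-140 cells, 5.09, 4.84 and 5.11 in siRNA-96 cells, 5.34, 5.37 and 5.28 in antimicroRNA-140 cells and 5.37, 5.37 and 5.40 in antimicroRNA-449 cells. Hoxa10, which specifies the lumbar spine and the uterus, had 4.31, 4.18 and 4.39 in siRNA-140 cells, 3.91, 4.21 and 4.36 in siRNA-96 cells, 4.53, 4.66 and 4.61 in antimicroRNA-140 cells and 4.49, 4.39 and 4.26 in antimicroRNA-449 cells. Neither of the posterior genes followed the split, and the Hoxa10 values given here did not overlap between the antimicroRNA groups.

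The promoters of 4 of these HoxA genes are printed, since Hoxa2, Hoxa3 and Hoxa7 gave the lowest log2 differences of all Hox genes in a fit of 10 arrays described further on, while Hoxa5 of the same cluster lay near 0 there. Each is 300 bases around a RefSeq start of the gene, mouse build GRCm38.p6, minus strand, printed 5′ to 3′ along the gene. They are Hoxa2 at chr6:52164782-52165081, Hoxa3 at chr6:52213018-52213317, Hoxa7 at chr6:52218524-52218823 and Hoxa5 at chr6:52204538-52204837. The Hoxa3 stretch lies between those of Hoxa5 and Hoxa7, not beside Hoxa2. Any start of Hoxa3 nearer to Hoxa2 was not examined. Capitals mark matches on either strand to TGATTNAT, a letter pattern for Hox and Pbx proteins together, or TAATNA, a core pattern for homeodomains.
Hoxa2: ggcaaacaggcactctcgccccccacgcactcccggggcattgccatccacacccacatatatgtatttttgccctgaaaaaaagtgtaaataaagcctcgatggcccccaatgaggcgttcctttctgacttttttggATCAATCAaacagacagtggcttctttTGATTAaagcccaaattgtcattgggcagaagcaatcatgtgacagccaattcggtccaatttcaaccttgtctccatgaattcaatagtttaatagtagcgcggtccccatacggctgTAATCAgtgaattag
Hoxa3: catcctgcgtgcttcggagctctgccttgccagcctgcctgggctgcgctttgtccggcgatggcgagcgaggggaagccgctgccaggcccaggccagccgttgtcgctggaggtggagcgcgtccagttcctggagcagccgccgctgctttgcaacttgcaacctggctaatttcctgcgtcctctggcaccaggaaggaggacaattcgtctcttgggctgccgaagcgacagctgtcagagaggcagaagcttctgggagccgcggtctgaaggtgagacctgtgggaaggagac
Hoxa7: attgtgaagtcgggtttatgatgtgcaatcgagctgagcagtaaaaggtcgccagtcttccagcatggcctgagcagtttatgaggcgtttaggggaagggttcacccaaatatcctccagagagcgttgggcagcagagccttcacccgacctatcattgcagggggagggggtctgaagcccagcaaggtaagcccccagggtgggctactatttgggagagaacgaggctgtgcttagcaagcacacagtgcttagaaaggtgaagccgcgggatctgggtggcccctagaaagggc
Hoxa5: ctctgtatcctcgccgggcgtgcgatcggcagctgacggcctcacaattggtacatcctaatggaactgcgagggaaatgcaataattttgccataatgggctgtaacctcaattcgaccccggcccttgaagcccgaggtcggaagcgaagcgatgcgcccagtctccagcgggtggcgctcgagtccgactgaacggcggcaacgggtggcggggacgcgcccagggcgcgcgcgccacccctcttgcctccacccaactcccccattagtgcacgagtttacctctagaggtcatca
The Hoxa2 promoter held both patterns, and the stretches printed for Hoxa3, Hoxa7 and Hoxa5 held neither. The pattern TGATTNAT occurred in 2 of 24 Hox promoters of 22 genes, those of Hoxa2 and Hoxd11, and in 3.22% of 32851 mouse promoters of the same length. TAATNA occurred in 6 of the 24 Hox promoters and in 26.5% of all. A match is only a run of letters and does not show that a protein binds there.

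From the other clusters Hoxb3, Hoxc6, Hoxc9 and Hoxd9 were above background in all arrays. Hoxb3, which acts in the hindbrain and with Hoxa3 in the throat, had 4.98, 5.25 and 5.11 in siRNA-140 cells, 5.04, 4.96 and 5.18 in siRNA-96 cells, 4.96, 4.74 and 5.0 in antimicroRNA-140 cells and 4.79, 4.93 and 5.40 in antimicroRNA-449 cells. Hoxc6, a gene of the thorax, had 4.63, 4.63 and 4.44 in siRNA-140 cells, 4.51, 4.37 and 4.40 in siRNA-96 cells, 4.66, 4.79 and 4.65 in antimicroRNA-140 cells and 4.82, 4.80 and 4.82 in antimicroRNA-449 cells, where the antimicroRNA-140 arrays were all the lower. Hoxc9, which restricts forelimb and motor neuron fates in the trunk, had 5.33, 5.64 and 5.32 in siRNA-140 cells, 5.67, 5.40 and 5.94 in siRNA-96 cells, 5.71, 5.31 and 5.67 in antimicroRNA-140 cells and 5.39, 5.51 and 5.61 in antimicroRNA-449 cells. Both Hoxb3 and Hoxc9 overlapped in each comparison. Hoxd9, a gene of the upper limb skeleton, had 4.28, 4.67 and 4.48 in siRNA-140 cells, 4.11, 4.27 and 4.21 in siRNA-96 cells, 5.33, 5.13 and 5.44 in antimicroRNA-140 cells and 5.51, 5.36 and 4.93 in antimicroRNA-449 cells. Its siRNA-140 arrays all lay above its siRNA-96 arrays, the nearest pair being 4.28 and 4.27.

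**Figure D2:**
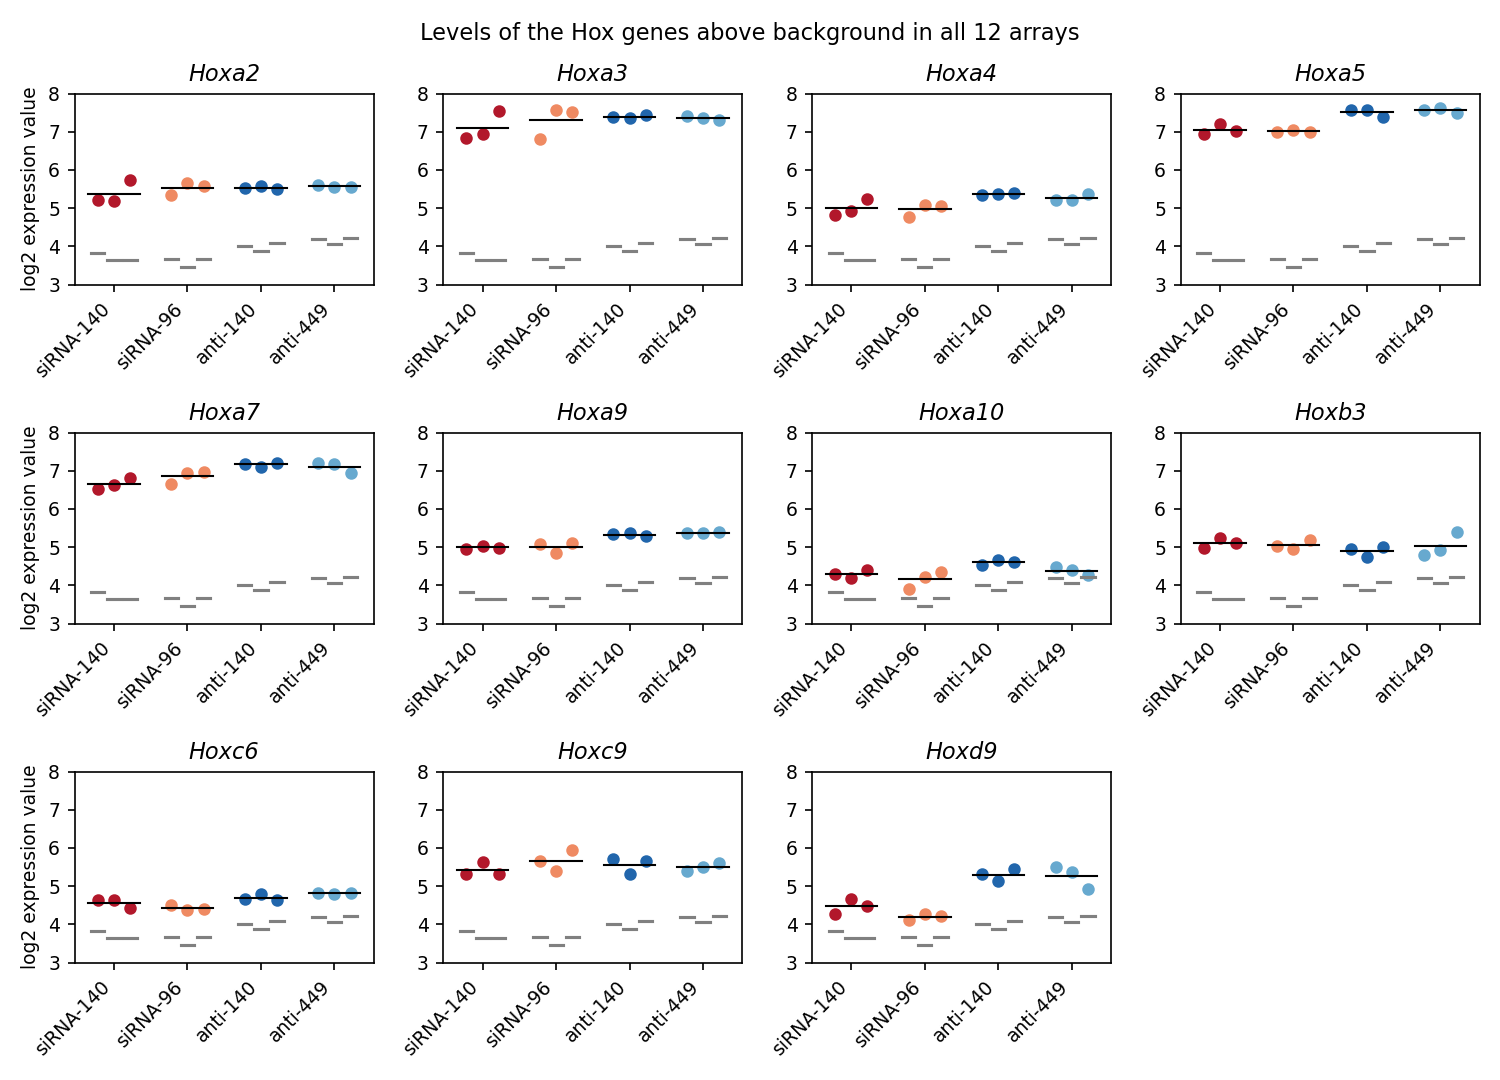
Each panel gives 1 of the 11 Hox genes above background; the vertical axis is the log2 expression value, points are arrays in replicate order, black lines are group means, grey ticks are the background level of each array, and anti-140 and anti-449 stand for the antimicroRNA groups. In the siRNA groups the Hoxa2 and Hoxa3 points split within each label, with siRNA-140 replicate 3 (7.53 for Hoxa3) beside siRNA-96 replicates 2 and 3, and siRNA-96 replicate 1 (6.82) beside siRNA-140 replicates 1 and 2.

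With all 12 arrays no Hox gene passed the test between siRNA-140 and siRNA-96 cells. In limma's moderated test, with Benjamini-Hochberg adjustment over 45037 probe sets, 0 of the 33 genes passed an adjusted p of 0.05, and the smallest was 0.88. Of all probe sets 0% passed. At an unadjusted p under 0.05 the test called 1 of the 33, against 5.09% of all probe sets. The log2 differences ran from -0.24 for Hoxc9 to 0.28 for Hoxd9, with 20 below 0 and 13 above, and their median was -0.06 against 0.023 over all probe sets. The 95% intervals reached from -0.61 to 0.60 at their widest.

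The single gene with an unadjusted p under 0.05 was Hoxd10, a gene of the hindlimb and lumbar region. It had 1.96, 2.29 and 2.15 in siRNA-140 cells, against 1.98, 1.92 and 1.76 in siRNA-96 cells, a difference of 0.25 ± 0.11 (SE) with an adjusted p of 0.88 in limma. Its levels were 2.16, 2.16 and 2.32 in antimicroRNA-140 cells and 2.11, 2.22 and 2.33 in antimicroRNA-449 cells. These readings lay below background in every array, and the groups overlapped in both experiments. Hoxd9 differed by 0.28 ± 0.15 with an adjusted p of 0.88. Hoxb9, a gene of the rib-bearing vertebrae, had 3.27, 3.26 and 3.37 in siRNA-140 cells and 3.68, 3.33 and 3.47 in siRNA-96 cells, a difference of -0.19 ± 0.11 with an adjusted p of 0.88, beside 3.38, 3.37 and 3.46 in antimicroRNA-140 cells and 3.36, 3.64 and 3.51 in antimicroRNA-449 cells. It was above background in 1 of 12 arrays. Among genes whose 2 groups did not overlap, Hoxd9 was the only Hox gene higher in siRNA-140 cells, where 3.5% of all probe sets were so. Hoxa13 and Hoxb1 were the only ones lower, where 2.6% were. Both lay below background in every siRNA array.

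Blocking miR-140 also left no Hox gene past the test. Between antimicroRNA-140 and antimicroRNA-449 cells 0 of 33 genes passed in limma, with all adjusted p at 1, and 0% of all probe sets did. At an unadjusted p under 0.05 there were 0 of 33, against 2.27% of all probe sets. The differences ran from -0.24 for Hoxd11 to 0.22 for Hoxa10 and Hoxd12, and the median was -0.0067 against -0.0033 over all probe sets. Their 95% intervals lay between -0.62 and 0.52. The spread between replicates differed among the HoxA genes. Hoxa13 averaged 3.70 ± 0.012 in antimicroRNA-140 cells and 3.82 ± 0.26 in antimicroRNA-449 cells, while Hoxa2 averaged 5.54 ± 0.036 in antimicroRNA-140 cells and 5.57 ± 0.023 in antimicroRNA-449 cells (SD, n = 3 each).

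The 3 smallest p-values in that comparison belonged to Hoxc8, Hoxa10 and Hoxd12. Hoxc8, a gene of the thoracic vertebrae, had 2.30, 2.13 and 2.19 in antimicroRNA-140 cells and 2.25, 2.49 and 2.47 in antimicroRNA-449 cells, a difference of -0.20 ± 0.093 (SE) with an adjusted p of 1, beside 1.83, 1.88 and 1.79 in siRNA-140 cells and 1.85, 1.95 and 1.89 in siRNA-96 cells. Hoxa10 differed by 0.22 ± 0.12 with an adjusted p of 1. Hoxd12, a gene of the digits, had 2.91, 2.99 and 3.07 in antimicroRNA-140 cells and 2.70, 2.66 and 2.95 in antimicroRNA-449 cells, a difference of 0.22 ± 0.13 with an adjusted p of 1, beside 2.61, 2.16 and 2.51 in siRNA-140 cells and 2.61, 2.27 and 2.59 in siRNA-96 cells. Hoxc8 and Hoxd12 were below background in every array and their groups overlapped in both experiments. Among the chosen probe sets, groups without overlap were found for Hoxa10, higher in antimicroRNA-140 cells, and for Hoxc6, lower there. Of all probe sets 4.06% were higher and 4.34% lower. Other probe sets of these genes did not repeat this. A dim Hoxa10 probe set was lower without overlap, at 2.78, 2.88 and 2.63 in antimicroRNA-140 cells, against 2.89, 2.98 and 2.95 in antimicroRNA-449 cells. For Hoxc6, another probe set overlapped, at 5.05, 4.42 and 4.61 against 4.25, 4.76 and 4.39. A dim one overlapped too, at 2.53, 2.48 and 2.6 against 2.67, 2.64 and 2.54.

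**Figure D3:**
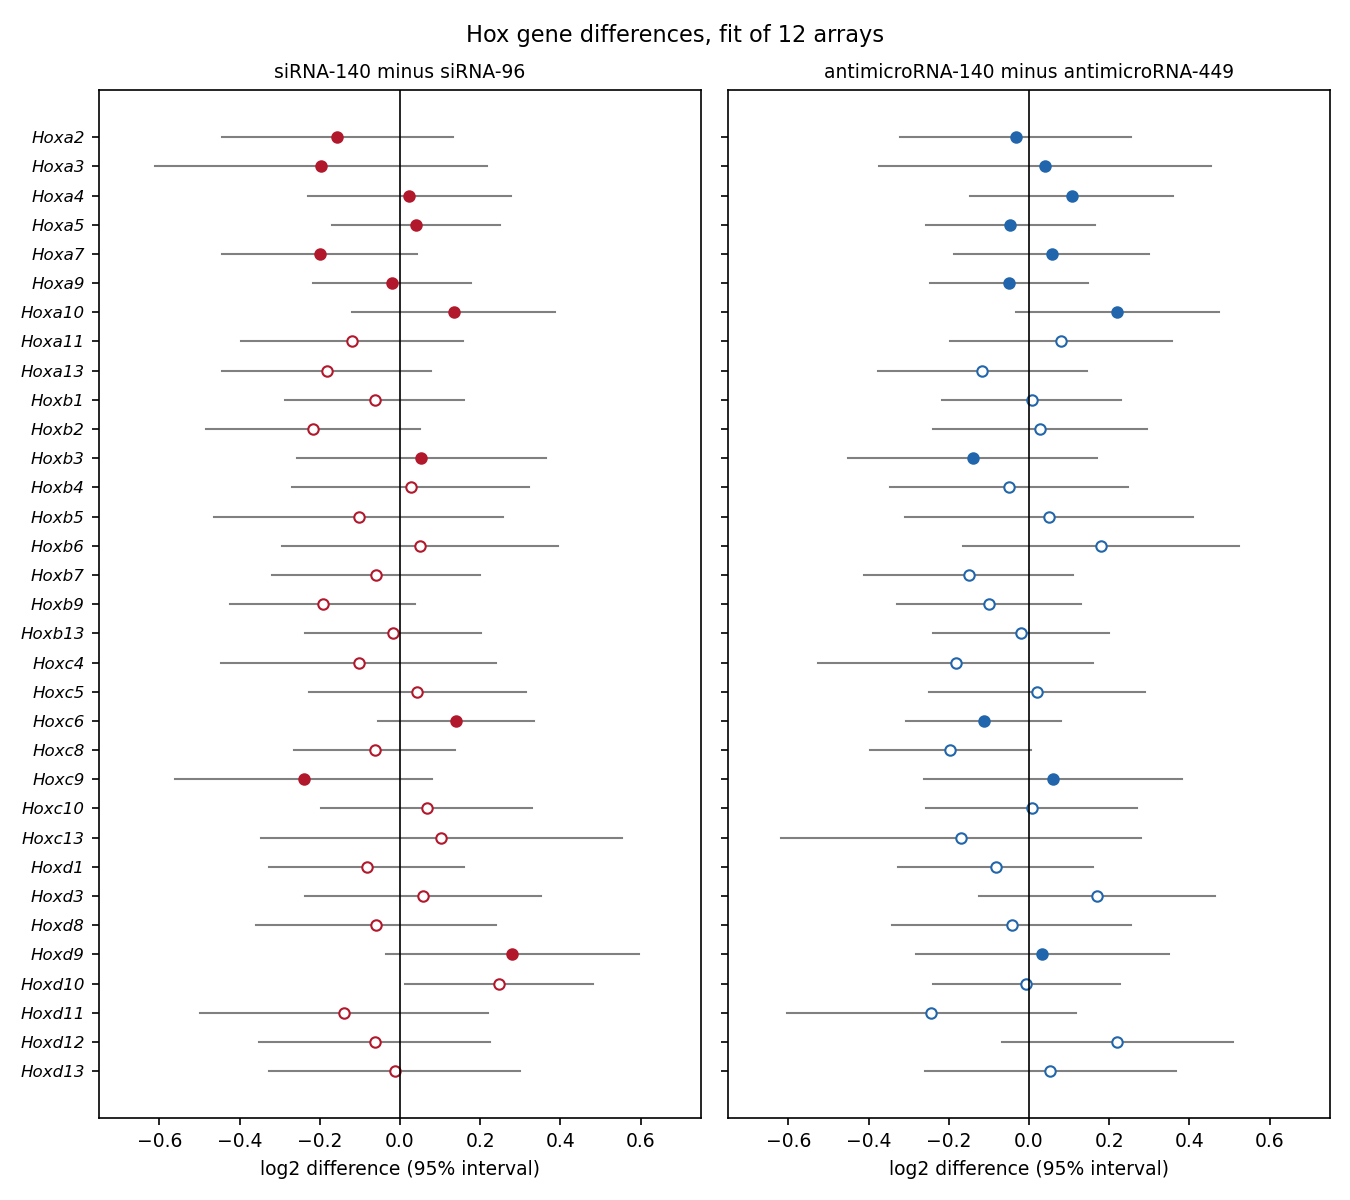
Points are log2 differences from the 12-array fit for the 33 Hox genes, in cluster order from top to bottom, with 95% intervals as bars; filled points are the 11 genes above background in all 12 arrays and open points the others. All intervals cross 0 except that of Hoxd10 in the siRNA panel, whose adjusted p was 0.88.

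The difference of the 2 contrasts asks whether the siRNA and the antimicroRNA comparisons were unequal. Since each has its own control, acting on or mimicking another microRNA, this difference cannot set responses to miR-140 apart from those to the controls. It passed for 0 of 33 Hox genes, where 0% of all probe sets passed, and had an unadjusted p under 0.05 for 0 of 33, against 2.94% of all probe sets. Hoxa7 differed by -0.20 ± 0.11 (SE) in the siRNA comparison and by 0.057 ± 0.11 in the antimicroRNA comparison. Hoxa3 differed by -0.20 ± 0.19 in the siRNA comparison and by 0.04 ± 0.19 in the antimicroRNA comparison. These are the values of genes that did not pass and carry no direction.

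The values that follow describe the siRNA arrays that remain once siRNA-140 replicate 3 and siRNA-96 replicate 1 are left out. These 2 were chosen for their profile over all probe sets, the Hox genes among them, so the p-values are no independent support. Without them the siRNA label and the split of the arrays coincide. Usp18 had 3.85 and 4.67 in the siRNA-140 arrays kept, against 8.92 and 9.30 in the siRNA-96 arrays kept. Differences by label and by split therefore cannot be told apart in the fits that follow. In the fit of the other 10 arrays 2 of 33 Hox genes passed, both lower (6.06%), where 3.85% of all probe sets were lower and 5.13% higher, so the share of Hox genes is near the background. Hoxa3 was lower by a log2 difference of -0.65 ± 0.10 (SE), with an adjusted p of 0.00123 in limma: it had 6.83 and 6.95 in siRNA-140 cells, against 7.56 and 7.52 in siRNA-96 cells. Hoxa2 was lower by -0.425 ± 0.098 with an adjusted p of 0.0151, with 5.22 and 5.18 in siRNA-140 cells, against 5.67 and 5.58 in siRNA-96 cells. In both genes the arrays left out ran the other way, at 7.53 and 5.73 in siRNA-140 replicate 3 and at 6.82 and 5.35 in siRNA-96 replicate 1.

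Cell type markers were called in the same 10-array fit, in both directions, where 3.85% of all probe sets were lower and 5.13% higher. Of 14 fibroblast and mesenchymal markers 3 were lower in siRNA-140 cells (Col3a1, Pdgfra and Fn1) and 1 was higher (Twist2), with a median of -0.10. The collagen gene Col3a1 had 11.40, 11.43 and 12.52 in siRNA-140 cells, against 11.12, 12.54 and 12.53 in siRNA-96 cells. Of 8 epithelial markers Krt14 alone was called, higher by 1.49 ± 0.19 (SE) with an adjusted p of 0.000327, and of 6 endothelial markers Tek alone, higher by 0.60 ± 0.13 with an adjusted p of 0.00903. Of 6 immune markers 1 was lower (Csf1r) and 1 higher (Itgam), and of 6 muscle and 7 neural and glial markers 0 were called. The part of these markers in the Hox values was not tested, and that of what sets the arrays apart cannot be told from the label here.

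Hoxa7 came next in size. It had 6.53 and 6.63 in siRNA-140 cells, against 6.95 and 6.96 in siRNA-96 cells, a log2 difference of -0.375 ± 0.11 (SE) with an adjusted p of 0.0567, which does not pass. The arrays left out had 6.80 in siRNA-140 replicate 3 and 6.65 in siRNA-96 replicate 1. Over the HoxA cluster 7 of 9 genes lay below 0, with a median of -0.19, while Hoxa5 differed by 0.05 ± 0.12, with a 95% interval from -0.21 to 0.31. Over all 33 Hox genes the median was -0.04, against 0.035 over all probe sets. Groups without overlap were frequent with 2 arrays a side: 6 Hox genes were higher in siRNA-140 cells, where 24.9% of all probe sets were, and 11 were lower, where 16.4% were.

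When only the 4 remaining siRNA arrays were fitted, Hoxa3 alone passed, lower by -0.65 ± 0.14 (SE) with an adjusted p of 0.0313, where 1.85% of all probe sets were lower. Hoxa2 then had an adjusted p of 0.157 and Hoxa7 of 0.223. The difference of the 2 contrasts in the 10-array fit passed for Hoxa3 only, at -0.69 ± 0.13 with an adjusted p of 0.00889, where 2.13% of all probe sets were lower. A second Hoxa3 probe set well above background gave a smaller difference, with 5.51 and 5.68 in siRNA-140 cells and 5.86 and 5.75 in siRNA-96 cells, or -0.21 ± 0.11 with an adjusted p of 0.314. The probe sets of Hoxa3 thus disagree on whether the gene passes, and the one that passed is of a type whose probes can match more than 1 transcript.

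**Figure D4:**
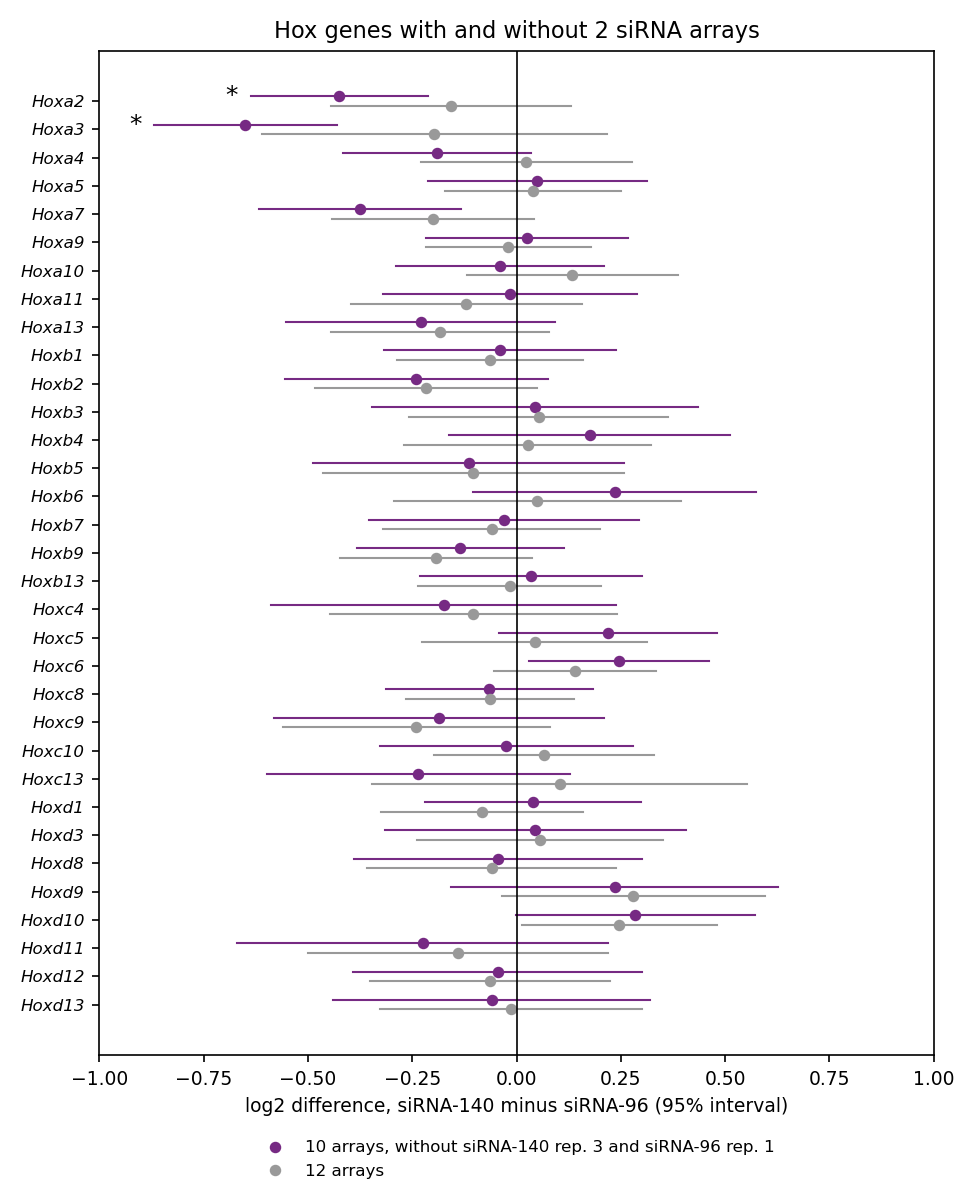
Log2 differences of siRNA-140 minus siRNA-96 with 95% intervals for the 33 Hox genes, in purple from the 10 arrays left once siRNA-140 replicate 3 and siRNA-96 replicate 1 are set aside and in grey from all 12; an asterisk marks an adjusted p under 0.05. Only Hoxa3 (-0.65) and Hoxa2 (-0.425) carry an asterisk, and both do so in the 10-array fit alone.

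Other transcripts of the clusters gave single calls in the same 10-array fit. A dim second probe set of Hoxc6 was higher in siRNA-140 cells by 0.455 ± 0.12 (SE) with an adjusted p of 0.0343, with 3.19 and 2.98 there, against 2.49 and 2.77 in siRNA-96 cells. The Hoxc6 probe set chosen by the rule differed by 0.245 ± 0.10 with an adjusted p of 0.176. A dim probe set of the antisense transcript Hoxd3os1 was higher by 0.54 ± 0.12 with an adjusted p of 0.0136, at 2.34 and 2.39 in siRNA-140 cells, against 1.88 and 1.77 in siRNA-96 cells. A second Hoxd3os1 probe set had 2.62 and 2.67 in siRNA-140 cells, against 2.62 and 2.52 in siRNA-96 cells, or 0.075 ± 0.13 with an adjusted p of 0.822. The Hoxc6 and Hoxd3os1 probe sets that passed lay below the background level, and in the 4-array fit neither passed, with adjusted p of 0.183 and 0.0686.

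Genes that work with Hox genes gave no call with all 12 arrays. The lists were TALE cofactors, Polycomb and trithorax genes, retinoic acid and Cdx inputs, limb and trunk factors, head factors, and neighbours of the clusters. In each of them 0 members passed in limma in either comparison, and the calls that follow come from the 10-array fit, where 3.85% of all probe sets were lower and 5.13% higher.

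Of 22 Polycomb and trithorax genes 3 were lower and 0 higher in siRNA-140 cells, with a median of 0. Jarid2, a subunit of the Polycomb complex that methylates histones, was lower by -0.725 ± 0.15 (SE) with an adjusted p of 0.00664, at 5.69 and 5.55 in siRNA-140 cells, against 6.12 and 6.57 in siRNA-96 cells. Rnf2, the ubiquitin ligase of the other Polycomb complex, was lower by -0.515 ± 0.11 with an adjusted p of 0.00972, and Kdm6b, a demethylase that removes the Polycomb mark, by -0.46 ± 0.13 with an adjusted p of 0.0433. The arrays left out ran the other way for Jarid2 too, at 6.21 in siRNA-140 replicate 3 and 5.42 in siRNA-96 replicate 1. In the 4-array fit only Jarid2 of these passed, with an adjusted p of 0.0472. Of 8 TALE cofactors Pbx2 alone passed, higher by 0.53 ± 0.14 with an adjusted p of 0.0262, and it did not pass in the 4-array fit, at 0.0691.

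Of 18 retinoic acid and Cdx genes 2 were higher and 0 lower, with a median of 0.013. The retinoic acid receptor Rarg was higher by 0.66 ± 0.11 (SE) with an adjusted p of 0.00178, at 9.58 and 9.77 in siRNA-140 cells, against 8.95 and 9.08 in siRNA-96 cells. Crabp2, which carries retinoic acid to the nucleus, was higher by 0.525 ± 0.12 with an adjusted p of 0.0114. Rarg again split within the labels, at 9.03 in siRNA-140 replicate 3 and 9.60 in siRNA-96 replicate 1.

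Other positional factors moved in both directions. Of 24 limb and trunk factors 3 were lower and 1 higher, with a median of 0.045. Foxf1, a factor of gut and lung mesenchyme, was lower by -0.955 ± 0.14 (SE) with an adjusted p of 0.000606, at 5.05 and 4.75 in siRNA-140 cells, against 5.98 and 5.73 in siRNA-96 cells. Gli3, a Hedgehog mediator of limb patterning, and Irx5 were also lower, and Shox2, a gene of the upper limb skeleton, was higher by 0.55 ± 0.12 with an adjusted p of 0.0128. Of 18 head factors 3 were lower and 0 higher, with a median of -0.065: Foxd1 by -0.72 ± 0.11 with an adjusted p of 0.000962, and Dlx1 and Six2 by -0.415 and -0.345. In the 4-array fit Foxf1, Foxd1 and Rarg passed, and of the others named in these lists Shox2, Gli3, Irx5, Dlx1, Six2 and Crabp2 did not.

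Of 16 genes flanking the Hox clusters 1 was lower and 2 were higher in siRNA-140 cells, with a median of 0.11. Snx10 and Skap2, which neighbour the HoxA cluster, were higher by 0.84 ± 0.13 and 0.56 ± 0.13 (SE), with adjusted p of 0.000898 and 0.0151. Snx10 had 7.80 and 8.10 in siRNA-140 cells, against 7.21 and 7.01 in siRNA-96 cells. In this fit Hoxa2 and Hoxa3 were lower and these called neighbours of their cluster higher. Calls in both directions were common over all probe sets, at 3.85% lower and 5.13% higher, so no link between these genes is drawn. The list's other neighbours of the HoxA cluster were not called. Mtx2, next to the HoxD cluster, was lower by -0.705 ± 0.11 with an adjusted p of 0.000937. The arrays left out ran the other way for Snx10, at 7.03 in siRNA-140 replicate 3 and 7.84 in siRNA-96 replicate 1. For Mtx2 they did so too, at 8.62 and 7.92. In the 4-array fit Snx10 and Mtx2 passed and Skap2 did not.

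**Figure D5:**
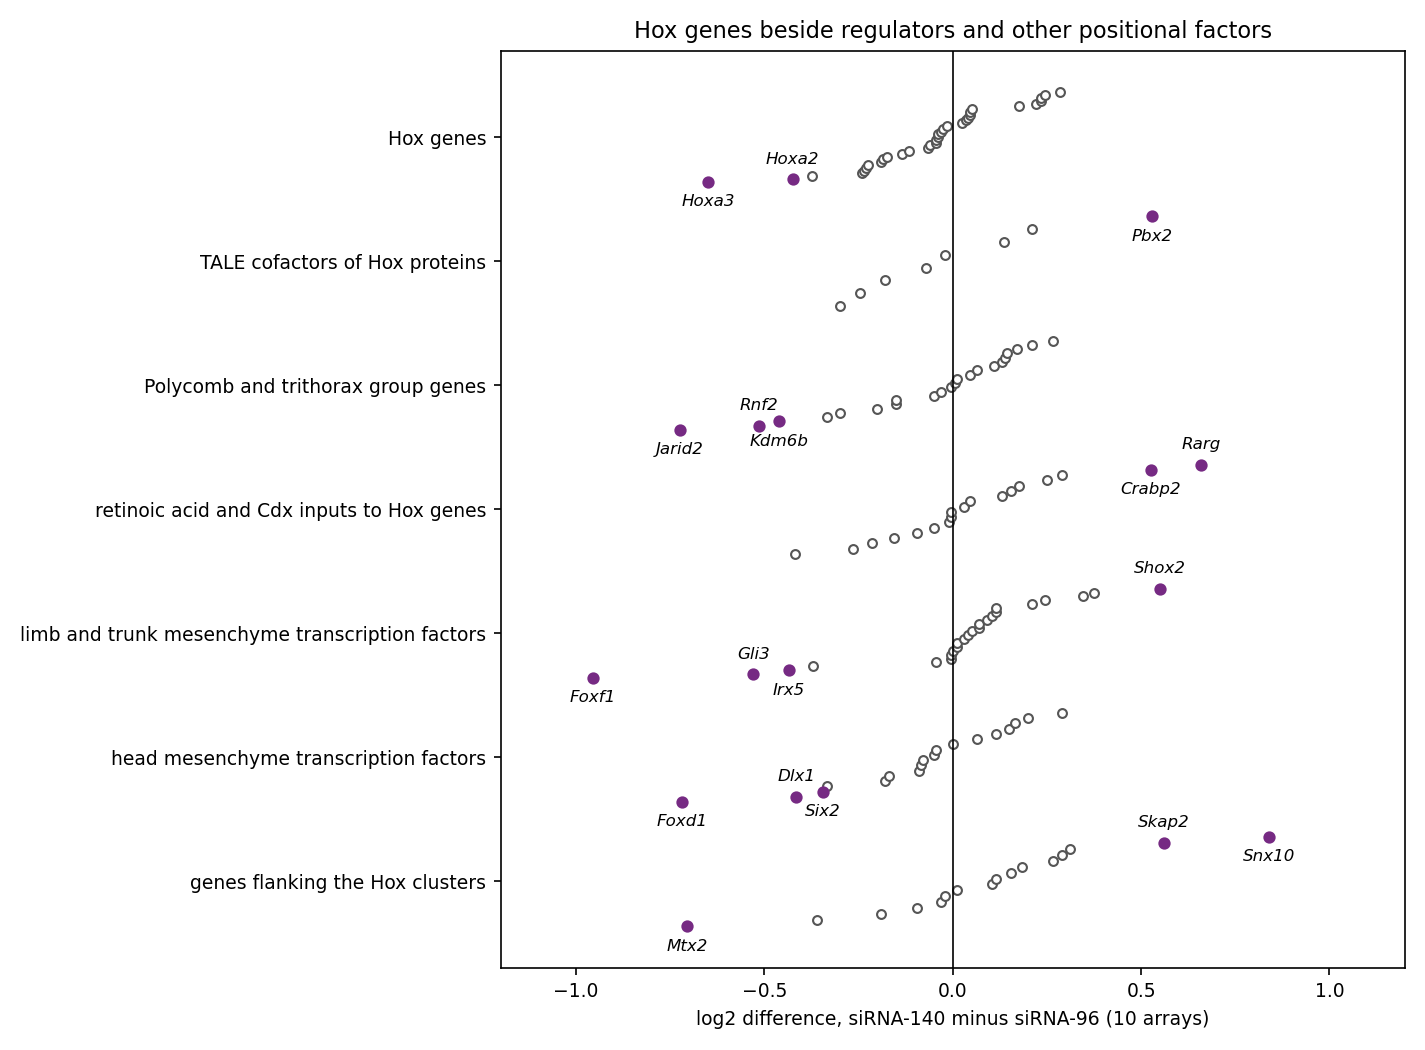
Each point is a gene and the horizontal axis its log2 difference, siRNA-140 minus siRNA-96, in the 10-array fit; filled and named points have an adjusted p under 0.05 and the vertical spread within a row only separates the points. Calls lie on both sides of 0, from Foxf1 at -0.955 to Snx10 at 0.84, with 2 of the 33 Hox genes among them.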

How the data were processed

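RNeasy-extracted, biotin-labelled RNA from C3H10T1/2 cells was measured on Affymetrix mouse arrays, per the labels' protocols. RMA, the method named by the submitters' processing notes, gave the deposited log2 values; no source used here gives its version. Of 45101 probe sets 64 array controls were left out, and 45037 were tested without a filter; 34945 carried 1 gene symbol, 932 several and 9160 none. A model of 4 group means was fitted with limma 3.58.1 (lmFit and eBayes, R 4.3.3), with Benjamini-Hochberg adjustment and a threshold of 0.05. The number of arrays, 3 a group, limits the precision. All Hox genes were counted. Named with values in every array were those above background in all arrays, those called in a fit and the 3 with the smallest p in each comparison, 15 in all; up to 4 genes of each partner list were named. Other fits varied the arrays, block, normalization, filter, probe sets and variance model. The fit was tested on simulated data. The members and lists were chosen with earlier results of these data known.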

Additional observations from a re-analysis of the deposited data

Results flagged for a closer look

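Hoxa3 differed between the experiments in the 10-array fit: its log2 difference of siRNA-140 minus siRNA-96 was lower than that of antimicroRNA-140 minus antimicroRNA-449 by -0.69 ± 0.13 (SE), with an adjusted p of 0.00889 in limma. What drew attention to it is this test of the difference itself. With all 12 arrays the difference of the contrasts did not pass for Hoxa3, and the value rests on leaving out siRNA-140 replicate 3 and siRNA-96 replicate 1. The second well-measured Hoxa3 probe set gave a siRNA difference of -0.21.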

How the results depend on the processing

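With siRNA-140 replicate 3 left out along with siRNA-96 replicate 1, the Hox genes called between siRNA-140 and siRNA-96 numbered 2 in the other 10 arrays and 1 in the 4 siRNA arrays alone, and 1 for the difference of the contrasts, against 0 with all arrays; probe sets called were 4043 and 1743. Leaving out single arrays gave 0 to 36 called probe sets, with 36 without siRNA-96 replicate 1 and 25 without siRNA-96 replicate 2, and 0 Hox genes. The cause was not tested. The replicate block changed no call, giving 0 Hox genes and 0 probe sets. Same-numbered siRNA arrays correlated at 0.41, -0.24 and 0.44 in their deviations from group means, and antimicroRNA arrays at -0.014, 0.10 and -0.032. The signs are mixed and each group mean rests on 3 arrays, so whether the numbers pair the arrays is not settled. Compared arrays alone, further quantile normalization, the mean of all probe sets, an intensity trend and a filter that kept 11 Hox genes called 0 Hox genes. Differences that were not called changed sign in 16 of 296 refits of named genes for siRNA and 11 of 266 for antimicroRNA. The background level moved the Hox genes above it to 11, 9 and 10 with the 90th and 99th percentiles and the array median.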
